A study of Mus musculus with 12 samples.

Results

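The genes described here are 7 fatty acid desaturases and elongases of mouse liver, *Fads1*, *Fads2*, *Elovl1*, *Elovl2*, *Elovl3*, *Elovl5* and *Scd2*, taken by symbol from the 16346 genes of the deposited RNA-seq table. All 7 had a value, and all 7 were among the 12366 genes whose mean of at least 10 allowed a test. The study sequenced liver RNA of C57BL6J mice aged 12 weeks to ask how MED13, a subunit of the Mediator kinase module, bears on the response of the liver to feeding and to fructose. Control mice were *Med13*fl/fl. MED13-LKO mice had the same floxed gene together with *Alb*-Cre, a transgene used for deletion in hepatocytes. Each genotype was fasted overnight for 16 h, or was refed for 4 h with normal chow (lab diet #5053) and water with 30% sucrose or 30% fructose. There were 2 mice in each of the 6 groups and 12 libraries in all. Mice refed with chow and plain water were not analysed here, so the effect of chow and that of sugar cannot be told apart.

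Values are normalized counts, that is, estimated read counts per gene divided by the authors' scaling factors. Low values fell on steps that placed the reads counted on genes at 16090000 to 24230000 per library. Summed over all genes, normalized counts were 21062200 to 24152900 in control libraries and 17309200 to 18738600 in libraries labelled MED13-LKO, without overlap. The targeted gene, *Med13*, showed no decrease in libraries labelled MED13-LKO, where its count was 646 to 1055, beside 578 to 796 in control libraries. A value per gene does not show whether particular exons were lost. At the protein level, the study reported that MED13 was almost absent from MED13-LKO liver. Hepatocyte markers were high in all libraries, with a summed normalized count of 2449400 to 3100960 in control and 1857820 to 2214350 in libraries labelled MED13-LKO, and none of the 6 was at 0. One library stood apart: replicate 1 of the control fructose group, in which the summed level of male-biased liver genes was the highest of all (1065190) and in which the adipocyte genes *Adipoq* (22.5) and *Cfd* (77.2) were clearly above their other libraries. The 4 adipocyte markers in the table summed to 137 there and to 129 in replicate 2 of the fasted group labelled MED13-LKO, where nearly all of it was *Plin4* (126).

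Liver cells make long polyunsaturated fatty acids such as arachidonic and docosahexaenoic acid from the dietary linoleic and alpha-linolenic acids. FADS2 and then FADS1 insert double bonds. Between and after these steps ELOVL5 and ELOVL2 start each round that lengthens the chain, ELOVL5 acting mainly on the shorter and ELOVL2 on the longer polyunsaturated chains. The other 3 enzymes work mostly on other substrates: ELOVL1 and ELOVL3 lengthen saturated and monounsaturated very long chains, and SCD2 is a stearoyl-CoA desaturase that makes monounsaturated fatty acids. In liver many of these genes are known targets of SREBP1, LXR or PPAR alpha, and *Elovl3* in mouse liver is known for a daily rhythm and for higher expression in males.

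On GRCm38, *Fads1* lies on chromosome 19 from 10182888 to 10196877 (plus strand) and *Fads2* on the same chromosome from 10062765 to 10101746 (minus strand). *Elovl3* (46131897 to 46135694, plus strand) and *Scd2* (44293674 to 44306864, plus strand) are also on chromosome 19. *Elovl5* lies on chromosome 9 from 77917364 to 77984519 (plus strand), *Elovl2* on chromosome 13 from 41182381 to 41220405 (minus strand), and *Elovl1* on chromosome 4 from 118428093 to 118432953 (plus strand). *Elovl1* overlaps *Cdc20* and *Elovl3* overlaps *Pitx3* on the opposite strand. The strandedness of the libraries is not given in the sources used here, so reads from the overlaps cannot be told apart. Of the 31-base subsequences of its transcripts, *Fads2* shares 0.729% with *Fads3*, and *Scd2* shares 6.81% with other genes, most of them with *Scd3*, whereas the other 5 members share none.

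The promoters of *Elovl5*, *Elovl2* and *Fads2* are shown because these genes moved in different directions in the comparison of genotypes below, with *Elovl5* and *Elovl2* lower and *Fads2* higher. They are RefSeq sequences on GRCm38.p6, from 250 bases before to 50 bases after the start of the gene, written 5′ to 3′ on the strand of the gene, with motif matches in capitals. The *Elovl5* promoter is chr9:77917115-77917414 (plus strand), that of *Elovl2* is chr13:41220354-41220653 (minus strand) and that of *Fads2* is chr19:10101454-10101753 (minus strand). RefSeq places the *Fads2* start inside the span given above, which reaches 10101746, so most of the *Fads2* window lies within that span.
Elovl5: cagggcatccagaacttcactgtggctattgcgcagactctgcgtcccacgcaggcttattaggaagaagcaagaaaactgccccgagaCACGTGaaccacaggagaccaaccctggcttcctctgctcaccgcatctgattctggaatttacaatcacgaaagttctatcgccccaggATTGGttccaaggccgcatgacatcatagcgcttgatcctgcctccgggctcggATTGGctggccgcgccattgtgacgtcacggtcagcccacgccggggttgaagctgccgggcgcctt
Elovl2: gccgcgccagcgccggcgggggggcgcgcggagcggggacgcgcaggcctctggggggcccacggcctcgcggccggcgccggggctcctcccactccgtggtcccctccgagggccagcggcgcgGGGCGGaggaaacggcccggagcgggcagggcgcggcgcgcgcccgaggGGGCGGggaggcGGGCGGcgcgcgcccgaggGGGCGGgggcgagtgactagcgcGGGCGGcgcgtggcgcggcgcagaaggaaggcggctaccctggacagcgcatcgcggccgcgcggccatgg
Fads2: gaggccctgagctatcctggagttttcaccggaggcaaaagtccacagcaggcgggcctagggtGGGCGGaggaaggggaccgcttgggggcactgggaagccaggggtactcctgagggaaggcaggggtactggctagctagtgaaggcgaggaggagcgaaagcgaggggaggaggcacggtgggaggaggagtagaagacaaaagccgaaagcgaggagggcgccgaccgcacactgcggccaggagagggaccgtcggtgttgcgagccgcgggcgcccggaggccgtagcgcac
Promoters were searched on both strands for the box CCAAT, the sterol response letters TCACNCCAC, the E-box letters CACGTG, the GC box GGGCGG, the STAT letters TTCNNNGAA, and direct repeats of the nuclear receptor letters spaced as for PPAR and for LXR. The last 2 of these share letters and so can overlap. The *Elovl5* promoter held CCAAT at -71 and -17, both on the reverse strand and so written ATTGG, and CACGTG at -161, counted from the start of the gene to the leftmost base of the match. The *Elovl2* promoter held 5 matches to GGGCGG, at -124, -75, -63, -44 and -21, and the *Fads2* promoter held 1, at -186. Of 32851 promoters of this length, 37.4% held the first of these motifs, CCAAT, 7.15% held the E-box letters and 35.7% held the GC box. The other motifs, which were held by 8.30% (the STAT letters), 1.242% (the sterol response letters), 0.0396% (the PPAR repeat) and 0.0152% (the LXR repeat) of all promoters, did not match in these 3 windows. A further window of *Elovl2* held no match. Of the other members, *Elovl1* was matched in the table with 2 windows and *Fads1*, *Elovl3* and *Scd2* were not matched.

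The 7 genes spanned a wide range of expression. Per kb of exon, the mean normalized count in fasted control liver was 2779 for *Fads2*, 2295 for *Elovl2*, 1314 for *Fads1*, 759 for *Elovl5*, 167 for *Elovl3*, 162 for *Elovl1* and 16.1 for *Scd2*. The range over the 12 libraries, on the same scale, was 2378 to 3606 for *Fads2*, 1463 to 2374 for *Elovl2*, 1305 to 1723 for *Fads1* and 482 to 1299 for *Elovl5*. *Fads2* thus lay above *Fads1* and *Fads1* above *Elovl5* throughout, and the lowest *Fads2* value stood just above the highest *Elovl2* value. Among the other 3, *Elovl1* ranged from 154 to 271, *Scd2* from 12.7 to 24.7 and *Elovl3* from 0 to 198. *Elovl3* was by far the most variable, with an SD over the 12 libraries of 2.22 on the log2 scale, against 0.14 for *Fads1*, 0.19 for *Fads2* and 0.43 for *Elovl5*.

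**Figure D1:**
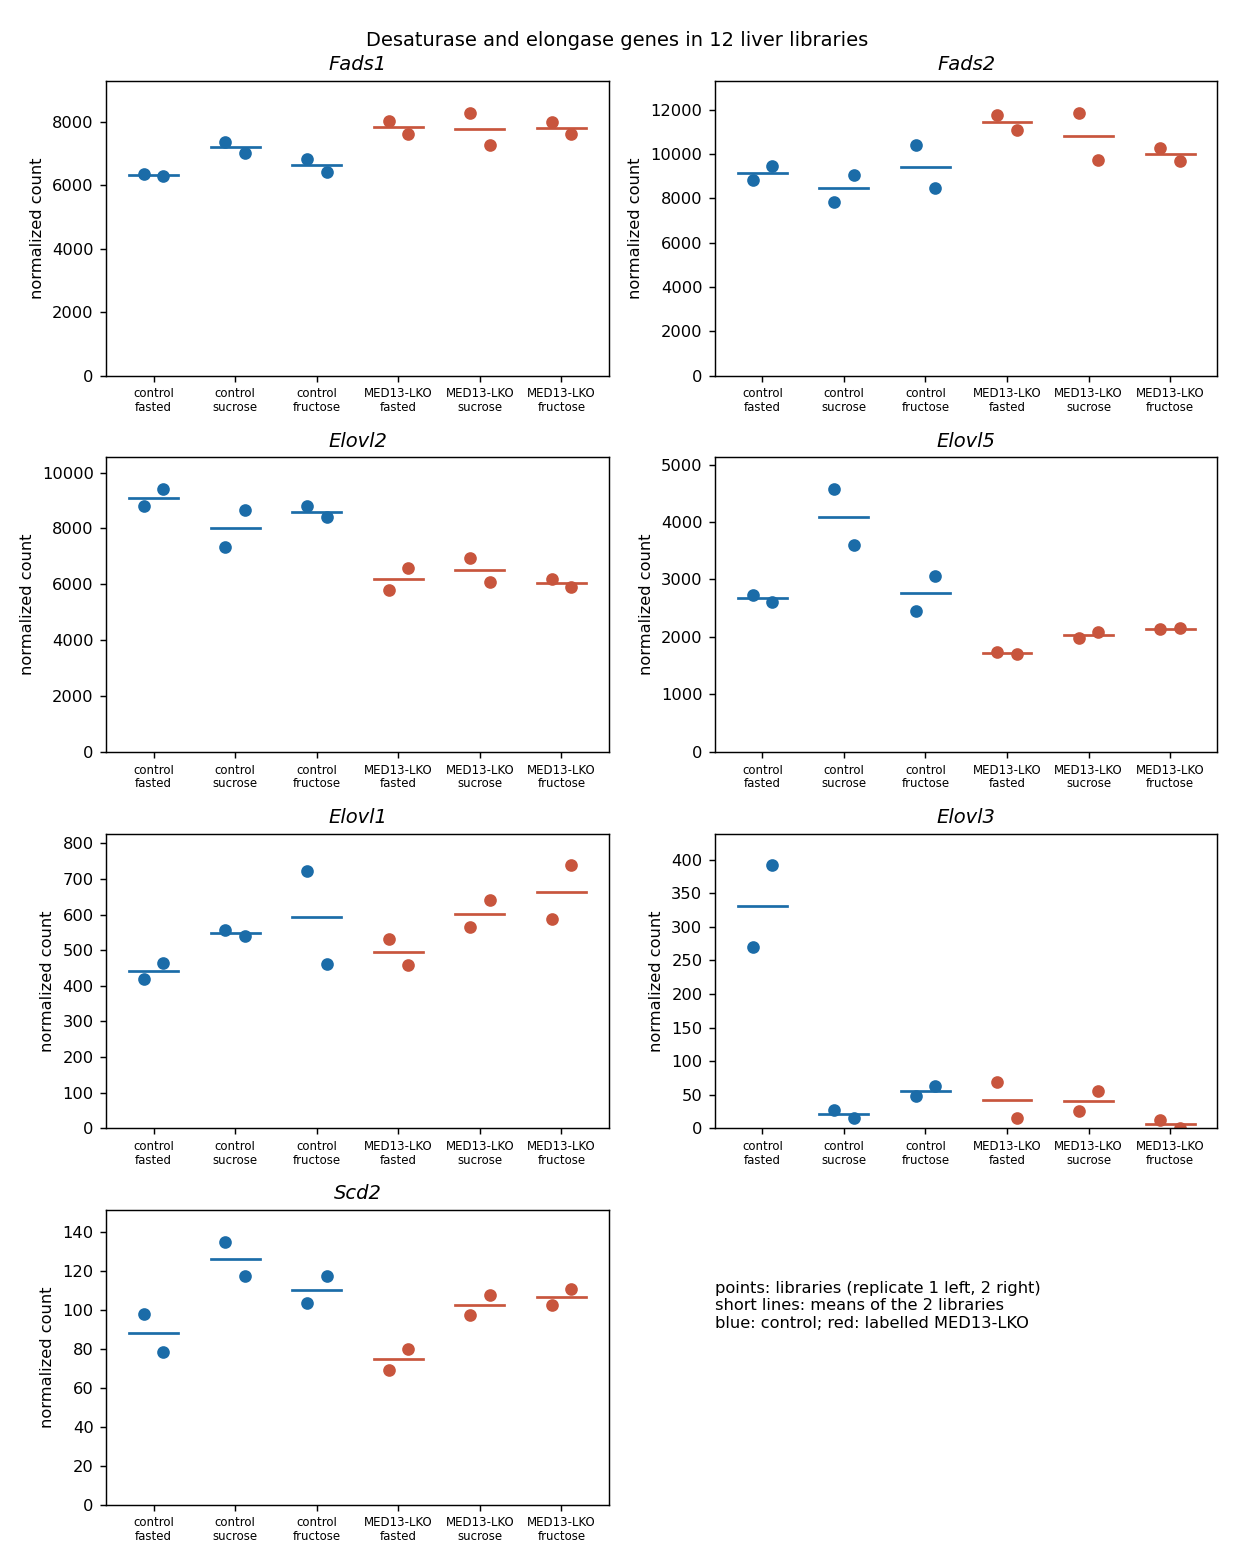
Normalized counts (linear axes from 0) of the 7 genes in the 12 libraries, with points for the 2 libraries of each group and short lines for their means. All 6 libraries labelled MED13-LKO lie below all 6 control libraries for *Elovl2* and *Elovl5*, and *Elovl3* is highest in the 2 fasted control libraries, at 269 and 391.6.

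The libraries labelled MED13-LKO had less *Elovl2* and *Elovl5* RNA and somewhat more *Fads1* and *Fads2* RNA than control libraries, averaged over the 3 diets. *Elovl3* was also lower, and *Elovl1* and *Scd2* did not pass the test. Thus 5 of 7 genes passed, 2 of them higher and 3 lower. Among all 12366 genes tested, 25.3% passed in this comparison, 12.1% higher and 13.2% lower. The median log2 fold change of the 7 genes was -0.19, beside 0.0058 over all genes tested. In bulk liver RNA, fewer cells of a type and less RNA per cell cannot be told apart.

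*Elovl5* was the gene with the lowest p-value of the 7. Fasted control liver had normalized counts of 2731 and 2616, sucrose-fed control liver 4575 and 3601, and fructose-fed control liver 2458 and 3064. The corresponding libraries labelled MED13-LKO had 1738 and 1698 (fasted), 1978 and 2080 (sucrose), and 2137 and 2150 (fructose). Every library labelled MED13-LKO was below every control library. The log2 fold change averaged over diets was -0.66 (SE 0.071, 95% interval -0.82 to -0.51), or 0.631-fold, with an adjusted p of 0.000158 from limma with Benjamini-Hochberg adjustment over all genes.

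*Elovl2* followed the same order. Its normalized counts were 8790 and 9414 in fasted, 7352 and 8647 in sucrose-fed, and 8797 and 8409 in fructose-fed control liver. Libraries labelled MED13-LKO held 5801 and 6572 (fasted), 6947 and 6090 (sucrose), and 6177 and 5905 (fructose). The genotypes did not overlap here either, and the lowest control library, with sucrose, stood just above the highest library labelled MED13-LKO, also with sucrose. The log2 fold change was -0.45 (SE 0.060, 95% interval -0.59 to -0.32), or 0.730-fold, with an adjusted p of 0.000536 from limma. For *Elovl5* and *Elovl2* the call held under every alternative setting run and with each library left out in turn. Leaving out a library moved the log2 fold change no further than -0.72 to -0.61 for *Elovl5* and -0.49 to -0.42 for *Elovl2*. A scaling to equal library sums, which were lower in libraries labelled MED13-LKO, was not among these settings.

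The desaturase genes *Fads1* and *Fads2* moved the other way. *Fads1* stood at 6365 and 6280 in fasted, 7370 and 7016 in sucrose-fed, and 6844 and 6404 in fructose-fed control liver. On the MED13-LKO side the labelled libraries stood at 8026 and 7631 (fasted), 8292 and 7259 (sucrose), and 7986 and 7615 (fructose). The genotypes met at 1 point, since 1 sucrose library labelled MED13-LKO was below 1 control sucrose library, and the log2 fold change was 0.22 (SE 0.047, adjusted p = 0.00806 from limma). This call held with each library left out in turn (highest adjusted p = 0.0257 from limma).

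*Fads2* stood at 8829 and 9486 in fasted, 7835 and 9079 in sucrose-fed, and 10395 and 8457 in fructose-fed control liver. It stood at 11795 and 11107 (fasted), 11882 and 9743 (sucrose), and 10293 and 9702 (fructose) in libraries labelled MED13-LKO. The genotypes overlapped only through replicate 1 of the control fructose group, which was above 3 libraries labelled MED13-LKO. On the log2 scale the difference was 0.26 (SE 0.073, adjusted p = 0.0279 from limma). The call was less secure than that of *Fads1*: it was lost without any 1 of the libraries control fasted 1 (adjusted p = 0.0734 from limma), control sucrose 1 (0.0701), control fructose 2 (0.0512), MED13-LKO fasted 1 (0.0688), MED13-LKO sucrose 1 (0.0778) and MED13-LKO fructose 1 (0.0676).

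*Elovl3* was highest in fasted control liver. Normalized counts in fasted, sucrose-fed and fructose-fed control liver were, in pairs, 269 and 391.6, then 27.1 and 15.5, then 48.5 and 63.0. Pairs of libraries labelled MED13-LKO had 69.2 and 15.8 (fasted), 25.2 and 55.7 (sucrose), and 12.8 and 0 (fructose). Both fasted control libraries were far above all others, and apart from them the genotypes overlapped. The library listed at 0 allows a value of up to 3.23 (3 reads), a limit that covers counting error only. Averaged over diets, the log2 fold change was -2.11 (SE 0.61, adjusted p = 0.0293 from limma). It was not lower in every diet: with sucrose alone the log2 fold change was 0.84, with overlap. A pseudocount of 0.1 ended this call (adjusted p = 0.0755 from limma), and so did leaving out any 1 of the libraries control fasted 1 (0.0518), control fasted 2 (0.0698), control sucrose 1 (0.0695), control fructose 2 (0.0521), MED13-LKO fasted 2 (0.0779) and MED13-LKO sucrose 1 (0.0796).

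*Elovl1* and *Scd2* did not pass the test between genotypes. The normalized counts of *Elovl1* ran from 420 to 724 in control liver and from 458 to 739 in libraries labelled MED13-LKO, and the log2 fold change was 0.16 (95% interval -0.090 to 0.41, adjusted p = 0.334 from limma). The highest control value was that of replicate 1 of the fructose group, and without it the log2 fold change of *Elovl1* was 0.27 and was called (adjusted p = 0.0451 from limma), so that 6 of 7 genes passed. *Scd2* ran from 78.4 to 135 and from 69.2 to 111, with a log2 fold change of -0.19 (95% interval -0.43 to 0.043, adjusted p = 0.216 from limma). In size, both intervals leave room for changes as large as those of *Fads1* and *Fads2*.

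**Figure D2:**
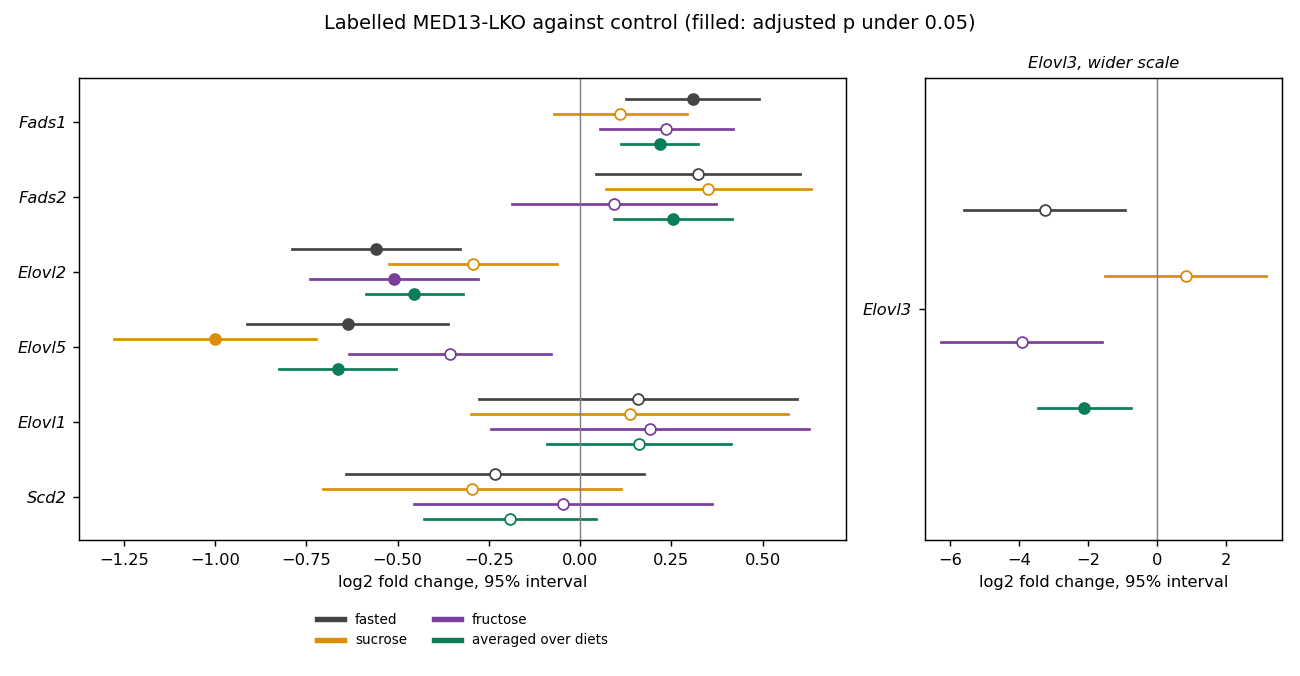
Log2 fold changes of the 7 genes between libraries labelled MED13-LKO and control, with 95% intervals, within each diet and averaged over diets, with *Elovl3* on a wider axis. Filled points passed an adjusted p of 0.05. Whether filled or open, *Elovl2* and *Elovl5* lie to the left of 0 in every diet, *Fads1* and *Fads2* to the right.

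The comparison of genotypes was also made within each diet, where each side has 2 libraries. In the fasted state 3 of 7 genes passed, against 8.98% of all genes tested. *Elovl2* was lower by -0.56 on the log2 scale (adjusted p = 0.00999 from limma), *Elovl5* by -0.64 (adjusted p = 0.0124 from limma), and *Fads1* was higher by 0.31 (adjusted p = 0.0446 from limma). *Elovl3* had the largest fold change, -3.25, with an adjusted p of 0.0848 from limma. It was called with a pseudocount of 10 (0.0106), with only the 2 fasted groups fitted (0.0472), and without MED13-LKO fructose 1 (0.0195) or 2 (0.0185). Leaving out a fasted library ended most of these calls. *Elovl5* was lost without any 1 of the fasted libraries (adjusted p from limma 0.0804 without control 1, 0.0604 without control 2, 0.0588 without MED13-LKO 1 and 0.0791 without MED13-LKO 2), and *Elovl2* without control 2 (0.0790) or MED13-LKO 1 (0.0721). The call of *Fads1* ended when low values were kept in (0.0573), and without control fasted 1 (0.156) or 2 (0.178), MED13-LKO fasted 1 (0.187) or 2 (0.122), either control sucrose library (0.0554 each) and either MED13-LKO fructose library (0.0602 each).

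With sucrose, 1 of 7 genes passed, against 6.03% of all genes. *Elovl5* was lower by -1.0 on the log2 scale (SE 0.12, 95% interval -1.28 to -0.72, adjusted p = 0.00163 from limma), a call that held under every alternative setting and with each library left out. *Elovl2* and *Fads2* differed by -0.29 and 0.35, with adjusted p of 0.135 and 0.141 from limma, and were not called. *Elovl3* differed by 0.84 (adjusted p = 0.719 from limma), opposite in sign to its change averaged over diets. With fructose, again 1 of 7 genes passed, against 7.69% of all genes. Here it was *Elovl2*, lower by -0.51 (adjusted p = 0.0167 from limma). The call was lost with only the 4 fructose libraries fitted (adjusted p = 0.0836 from limma) and without control fructose 1 (0.0698), MED13-LKO fructose 1 (0.0603) or MED13-LKO fructose 2 (0.109). With fructose, *Elovl5* differed by -0.36 (adjusted p = 0.117 from limma) and *Elovl3* by -3.92 (adjusted p = 0.0504 from limma). The size for *Elovl3* rests in part on the library listed at 0, and with a pseudocount of 10 it was -2.11. *Elovl3* was called there with that pseudocount (adjusted p = 0.0437 from limma) and without MED13-LKO fructose 1. The latter leaves that group with the 1 library listed at 0, so its fold change is set by the pseudocount and is not given.

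Because *Fads1* and *Fads2* moved in the opposite direction to *Elovl2* and *Elovl5*, their ratio within each library separated the genotypes without any scaling between libraries. The pairs were chosen after the values were seen, and the ratios are a description. *Fads2* over *Elovl2* was 1.01 to 1.18 in control libraries, with a median of 1.03, and 1.6 to 2.03 in libraries labelled MED13-LKO, with a median of 1.68. *Fads2* over *Elovl5* was 1.71 to 4.23 in control and 4.51 to 6.79 in libraries labelled MED13-LKO. *Fads1* over *Elovl5* was 1.61 to 2.79 and 3.49 to 4.62. These 3 ratios did not overlap between genotypes, but *Elovl2* and *Elovl5* already did not overlap on their own. The share of other gene pairs whose ratio does not overlap was not counted, and *Fads1* over *Elovl2* was not computed. The ratio of the desaturases to each other overlapped (*Fads1* over *Fads2*, 0.658 to 0.941 and 0.681 to 0.785), as did that of the elongases (*Elovl2* over *Elovl5*, 1.61 to 3.60 and 2.75 to 3.87).

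**Figure D3:**
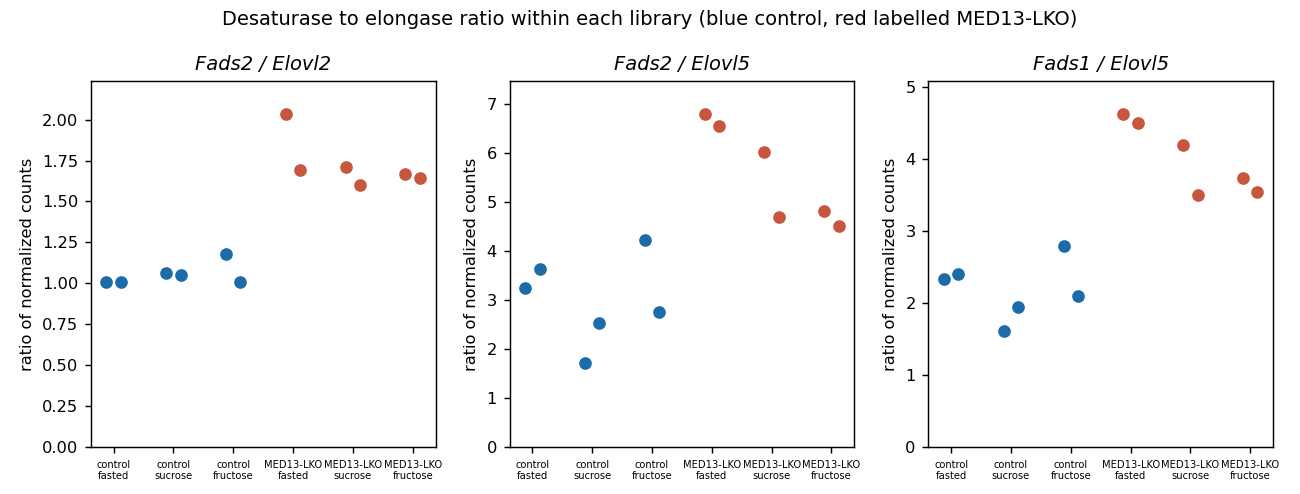
Ratio of the normalized counts of a desaturase to those of an elongase in each of the 12 libraries, on linear axes from 0. In each panel all 6 libraries labelled MED13-LKO lie above all 6 control libraries, for *Fads2* over *Elovl2* at 1.6 to 2.03 against 1.01 to 1.18.

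Other genes of the pathway were read from lists, again for genotypes averaged over diets, where 25.3% of all genes were called. Of the other desaturases and elongases, 6 of 10 could be tested, and 3 passed as higher and 2 as lower in libraries labelled MED13-LKO. *Fads3*, the neighbour of *Fads2*, was higher by 1.58 and *Degs1*, the desaturase of ceramide synthesis, by 0.51 on the log2 scale, both without overlap. *Scd1*, the main stearoyl-CoA desaturase of adult liver, was lower by -1.68 and *Elovl6*, which lengthens palmitate, by -1.12, with overlap. Of 6 further enzymes of the elongation cycle, 1 was higher and 2 were lower: *Hacd1*, a dehydratase, rose by 0.51 and its paralog *Hacd3* fell by 0.24. Of 5 genes of the cytochrome b5 system, which passes electrons to the desaturases, 2 were lower, with *Cyb5a* itself at -0.73.

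Genes that take the products further were read beside the same 25.3% of all genes called. The 3 of 9 acyltransferases given here are close to that share. Among 10 genes of peroxisomal shortening, by which docosahexaenoic acid is completed, 3 were higher and 2 lower. *Abcd2*, a peroxisomal importer of very long chain acyl-CoA, was higher by 1.48, whereas the importer *Abcd3* (-0.53) and the thiolase and carrier gene *Scp2* (-0.46) were lower. Of 6 acyl-CoA synthetases 4 were lower and none higher, with *Slc27a5* at -0.78. Of 9 phospholipid acyltransferases 3 were lower and none higher. Among 12 regulators of these genes, 1 was higher (*Srebf2*, 0.26) and 5 were lower: *Insig1* (-0.67), *Srebf1* (-0.60), *Scap* (-0.33), *Rxra* (-0.33) and *Mlxipl* (-0.30). The list medians ran from -0.36 for the acyl-CoA synthetases to 0.31 for the other desaturases and elongases.

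**Figure D4:**
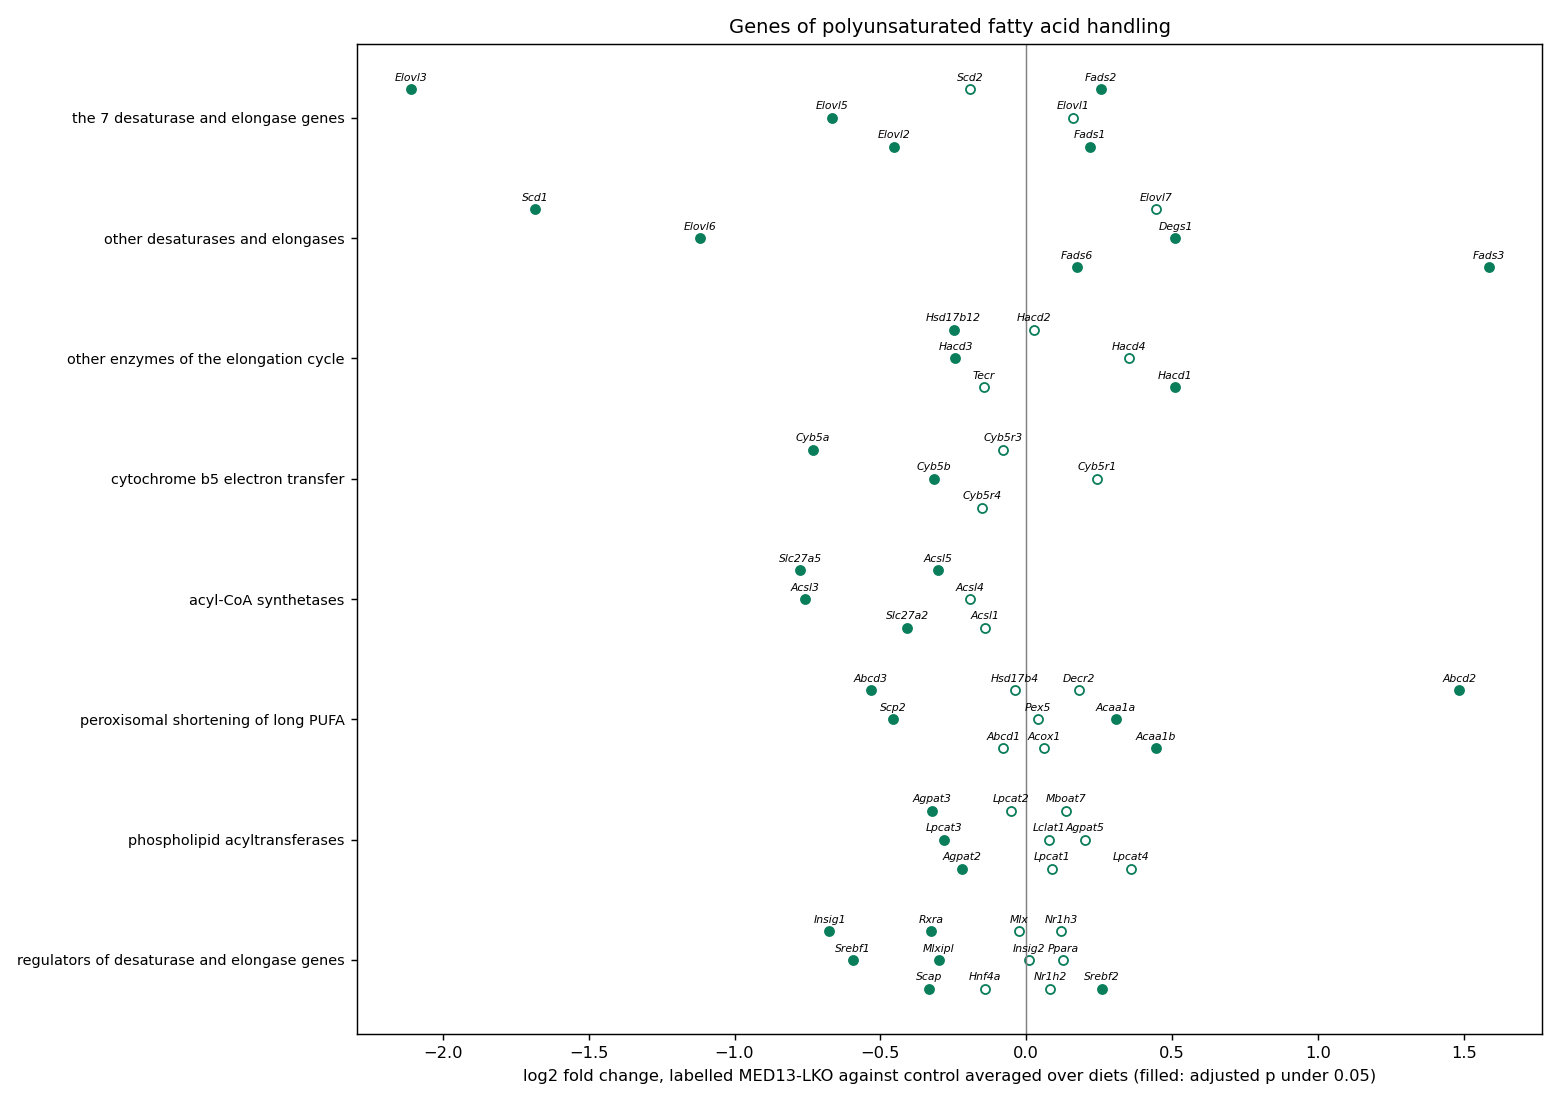
Log2 fold changes between libraries labelled MED13-LKO and control, averaged over diets, for the 7 genes and for the tested genes of 7 lists, with filled points for an adjusted p under 0.05. *Fads3* (1.58) and *Abcd2* (1.48) lie farthest to the right, and *Elovl3* (-2.11) and *Scd1* (-1.68) farthest to the left.

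Marker lists were read in the same comparison, in which 25.3% of all genes tested were called, and their part in the results above was not tested. The counts of 2 of 8 Kupffer cell and 1 of 4 cholangiocyte markers given here are at that share. Of 12 male-biased liver genes 8 were lower and none higher, with a summed normalized count of 340782 to 1065190 in control and 89731 to 134997 in libraries labelled MED13-LKO. *Mup7* differed by -7.27, *Selenbp2* by -5.67 and *Hsd3b5* by -5.24. Of 14 female-biased genes listed, 13 had a value and 8 could be tested, of which 5 were higher and none lower. The 13 summed to 1101 to 2081 and 6298 to 9839, with *Cyp2a4* at 7.78, *A1bg* at 3.81 and *Cux2* at 1.31. *A1bg* was at 0 to 2.20 in control and at 7.43 to 43.1 in libraries labelled MED13-LKO. It thus passed the filter on low values only through the latter, and its fold change depends on the pseudocount. The 4 Y-linked genes in the table summed to 3031 to 3547 in control and 3253 to 3692 in libraries labelled MED13-LKO, so RNA of male mice was present in all. Of 6 hepatocyte markers 5 were lower (*Serpina1a* -0.64, *Alb* -0.45, *Ttr* -0.44). Of 8 Kupffer cell markers 2 were higher (*Marco* 1.22, *Cd5l* 0.63), with sums of 3978 to 5610 and 5129 to 6808, and of 7 sinusoidal endothelial markers 4 were higher, with sums of 3825 to 4526 and 4411 to 6041. Of 7 stellate cell markers 3 were lower (6734 to 7858 and 6230 to 7088) and of 4 cholangiocyte markers 1 was lower (666 to 876 and 534 to 849). Of 5 cholangiocyte markers listed, 4 had a value. No marker of these 5 cell types that had a value was at 0 in any library. Of the adipocyte and of the T and B cell markers 1 each could be tested, and neither passed.

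Refed liver was then compared with fasted liver. Over both sugars and genotypes, *Scd2* and *Elovl5* rose and *Elovl3* fell, and *Fads1*, *Fads2*, *Elovl2* and *Elovl1* did not pass the test. Of the 4 genes of the polyunsaturated pathway *Elovl5* was thus the one that passed. That is 3 of 7 genes, 2 higher and 1 lower, against 21.8% of all genes tested, 10.7% higher and 11% lower. Fasted mice were killed in the morning and refed mice in the early afternoon, so feeding and time of day cannot be told apart. Of 15 core clock genes tested 2 were higher and 7 lower in refed liver, among them *Nr1d2* (-0.66) and *Per2* (0.41). Of the cell type markers, 1 of 6 hepatocyte, 2 of 7 endothelial and 1 of 7 stellate cell markers were lower, 1 of 7 stellate cell markers was higher, and no Kupffer cell or cholangiocyte marker passed. Of the 12 male-biased, of the 8 female-biased and of the 4 Y-linked genes 1 each was lower. Without replicate 1 of the control fructose group, the number of members called was also 3.

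*Scd2* was low throughout and higher after refeeding in each group. Control liver had 97.7 and 78.4 normalized counts when fasted, then 135 and 118 after sucrose and 103 and 117 after fructose. Liver labelled MED13-LKO had 69.2 and 79.8 when fasted, then 97.5 and 107 after sucrose and 102 and 111 after fructose. Refed libraries were above fasted ones except that the lower value of refed MED13-LKO mice, 97.5, was just under the higher fasted control value. The log2 fold change averaged over sugars and genotypes was 0.45 (SE 0.11, adjusted p = 0.0175 from limma), and the single steps were 0.52 and 0.33 in control and 0.46 and 0.51 in libraries labelled MED13-LKO, none of them called. The averaged call was lost without control fasted 2 (adjusted p = 0.0808 from limma) or MED13-LKO fasted 1 (0.0721).

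*Elovl5* rose by 0.30 on the log2 scale averaged over sugars and genotypes (SE 0.076, adjusted p = 0.0193 from limma). Its refed levels were unlike between groups, with both control sucrose libraries above all others. The averaged call was lost without control fasted 1 (adjusted p = 0.0501 from limma), control fasted 2 (0.0771), MED13-LKO fasted 1 (0.0557) or MED13-LKO fasted 2 (0.0702). In control liver the change was 0.60 with sucrose (95% interval 0.33 to 0.88, adjusted p = 0.0173 from limma) and 0.038 with fructose (95% interval -0.24 to 0.31, adjusted p = 0.889 from limma). In libraries labelled MED13-LKO sucrose gave 0.24 (adjusted p = 0.310 from limma) and fructose 0.32 (adjusted p = 0.158 from limma), and neither was called. For sucrose in control liver, the call was lost with only the 2 groups fitted (0.0536) and without control fasted 1 (0.0649), control fasted 2 (0.108) or control sucrose 1 (0.113).

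*Elovl3* fell by 2.37 on the log2 scale averaged over sugars and genotypes (SE 0.64, adjusted p = 0.0256 from limma). In control liver the log2 fold change was -3.92 with sucrose (adjusted p = 0.0470 from limma) and -2.53 after fructose (adjusted p = 0.186 from limma), and all 4 refed control libraries were far below both fasted ones. For mice labelled MED13-LKO it was 0.17 after sucrose (adjusted p = 0.954 from limma) and -3.21 after fructose (adjusted p = 0.10 from limma), where the fasted level was already low. The value of -3.21 rests in part on the library listed at 0, and came to -1.31 at its smallest with a library left out. The averaged call was lost with a pseudocount of 0.1 (0.0858) and without control fasted 1 (0.0604), control fasted 2 (0.0939), control sucrose 2 (0.0503), MED13-LKO fasted 1 (0.113) or MED13-LKO sucrose 1 (0.0546). The call with sucrose in control liver was lost with a pseudocount of 0.1 (0.186), when low values were kept in (0.0538), and in 8 of the 12 fits that left out a library: control fasted 1 (0.127) or 2 (0.209), control sucrose 1 (0.135) or 2 (0.176), control fructose 1 (0.0507) or 2 (0.0505) and MED13-LKO sucrose 1 (0.0653) or 2 (0.0655). With fructose, *Elovl3* was called in control liver with a pseudocount of 10 (0.0370), and in libraries labelled MED13-LKO without replicate 1 of the fructose group (0.0131), which again leaves the 1 library listed at 0 and a fold change set by the pseudocount.

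*Elovl1* had a log2 fold change of 0.35 averaged over sugars and genotypes and just missed the threshold (95% interval 0.083 to 0.62, adjusted p = 0.0633 from limma). It was called with equal 75th percentiles (0.0483) and without control fructose 2 (0.00628), a library whose *Elovl1* count of 460 was well below the 724 of the other control fructose mouse. Without that library *Elovl1* was also called between fructose-fed and fasted control liver (0.71, adjusted p = 0.0313 from limma). For *Fads1*, *Fads2* and *Elovl2* the averaged changes were 0.059, -0.092 and -0.057, with 95% intervals of -0.053 to 0.17, -0.26 to 0.080 and -0.20 to 0.084. Over these 3 genes the intervals thus run from -0.26 to 0.17 on the log2 scale.

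**Figure D5:**
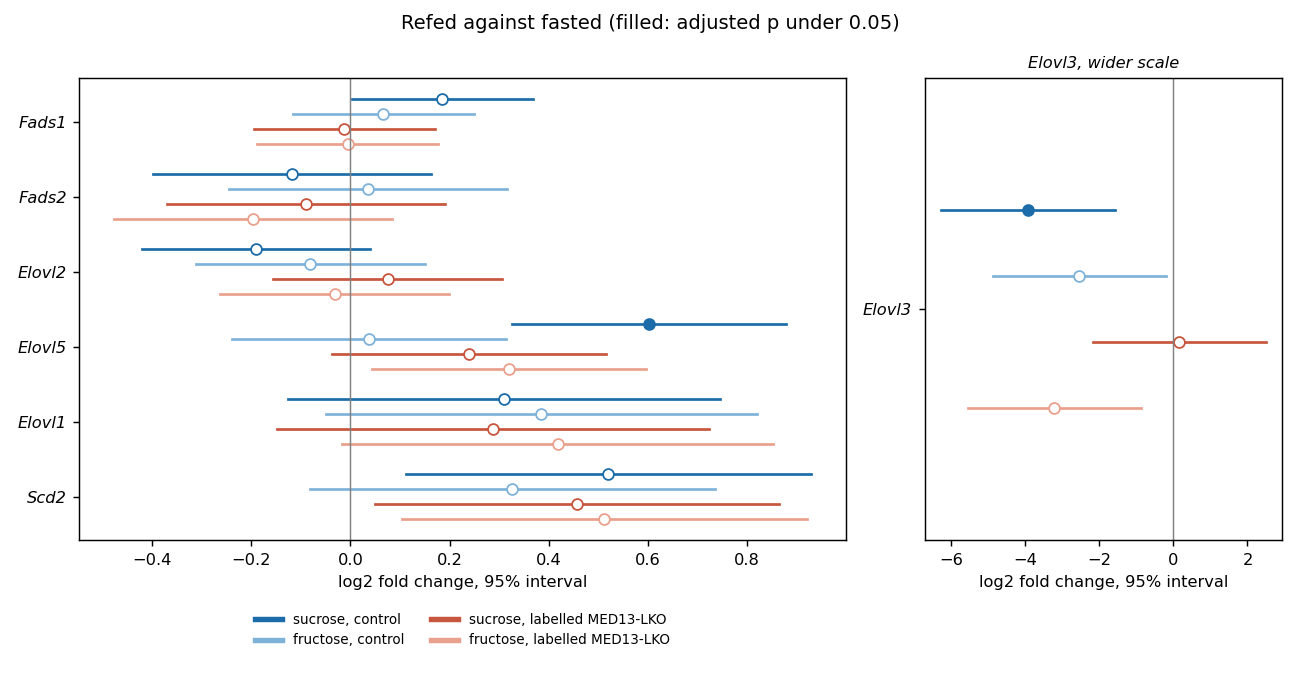
Log2 fold changes of the 7 genes between refed and fasted liver, with 95% intervals, for each sugar and genotype, with *Elovl3* on a wider axis. Only *Elovl5* (0.60) and *Elovl3* (-3.92) with sucrose in control liver are filled, that is, past an adjusted p of 0.05.

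Taken by sugar and genotype, 2 of 7 genes passed between sucrose-fed and fasted control liver, against 8.57% of all genes. None passed in the other 3 comparisons with fasted liver by limma: fructose in control liver (5.6% of all genes, 1 of the 7 at an unadjusted p under 0.05), sucrose in libraries labelled MED13-LKO (5.71%, 1 gene) and fructose in libraries labelled MED13-LKO (6.53%, 3 genes). These percentages are of genes called. Unadjusted p from limma was under 0.05 for 2829, 2577 and 2866 of 12366 genes in these comparisons, in that order. Within a genotype both sugars are compared with the same 2 fasted libraries. Among related genes, read beside the 21.8% of all genes called over both sugars and genotypes, refeeding moved *Elovl6* by 3.13, the largest change of the listed desaturases and elongases, of which 3 of 6 rose and none fell. Of 12 regulators 5 were higher and 4 lower, with *Srebf1* at 1.72, *Insig2* at -0.59 and *Mlx* at 0.48. Of the further lists, 1 of 6 elongation cycle genes rose. In the cytochrome b5 system 1 of 5 rose and 1 fell, of 10 peroxisomal genes 1 rose, of 6 acyl-CoA synthetases 2 rose and 2 fell, and of 9 acyltransferases *Agpat2* rose (0.43) and *Lpcat3* fell (by 0.28).

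The sugars were compared with each other within each genotype. No member passed in control liver or in libraries labelled MED13-LKO by limma, with 0.0404% of all genes called in either genotype. Unadjusted p was under 0.05 for 1061 of 12366 genes in control and 951 in libraries labelled MED13-LKO, and for 1 member in each. In control liver that gene was *Elovl5*, with a log2 fold change of -0.56 from sucrose to fructose (unadjusted p = 0.00105 and adjusted p = 0.216 from limma), and it was called without control fructose 2, when the log2 fold change was -0.72 (adjusted p = 0.0460 from limma). The corresponding gene in libraries labelled MED13-LKO was *Elovl3*, at 25.2 and 55.7 with sucrose and 12.8 and 0 with fructose (-3.37, unadjusted p = 0.00926 and adjusted p = 0.457 from limma). The value of -3.37 rests in part on the library listed at 0, and came to -1.48 at its smallest with a library left out. For *Fads1*, *Fads2* and *Elovl2* the differences between the sugars lay between -0.12 and 0.15.

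Whether a response differed between genotypes was tested as an interaction. For sucrose against fasted no member passed by limma (0.146% of all genes did). Unadjusted p was under 0.05 for 1055 of 12366 genes. Among them was 1 member, *Elovl3*, whose response differed by 4.09 (adjusted p = 0.505 from limma). The response of *Elovl5* to sucrose differed by -0.36 between libraries labelled MED13-LKO and control (95% interval -0.75 to 0.027, adjusted p = 0.612 from limma), so that it was not shown to differ. For fructose against fasted no member passed (0.0243% of all genes) and none had an unadjusted p under 0.05, beside 1170 of 12366 genes.

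A likeness to other genes was sought for *Elovl3*, the only member whose SD over the 12 libraries was above 0.5 on the log2 scale. The 3 genes with the smallest root mean square difference from it, after centring each gene on its own mean over the 12 libraries, were *Pdgfrl* (1.42), *Itgb8* (1.43) and *Cyp2b10* (1.43). These differences are large beside the SD of *Elovl3* itself, 2.22, so no gene followed it closely. *Cyp2b10*, a cytochrome P450 of drug metabolism, was at 717 and 878 in fasted control liver and at 92.1 to 480 in all other libraries, and so shared the peak in the fasted control group.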

How the data were processed

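Liver RNA-seq libraries from 12 mice were analysed, 2 in each of 6 groups set by the sample titles. The authors deposited normalized counts per gene (used here as a signal, not as reads), made with Trim Galore 0.6.5 (stringency 5), kallisto 0.46.0 and DESeq2 1.24.0. These versions and the build mm10 come from the submitters' processing notes. The transcript annotation is not given in the sources used here. No other columns of values were present.

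Log2(normalized count + 1) of 12366 genes, those with mean counts no lower than 10, was fitted with limma 3.58.1 in R 4.3.3, all 6 groups in 1 model, with trended empirical Bayes variances. P-values were two-sided and adjusted by Benjamini-Hochberg over all genes tested in each of 14 comparisons, and called under 0.05. Fold changes on this scale understate those of low genes. The fit was tested on simulated data. Alternatives were pseudocounts of 0.1 and 10, no filter, equal 75th percentiles, a block for the replicate number, only the groups compared, and leaving out each library, where a lone library is assumed to vary like the other groups. Replicates are separate mice as far as the labels tell.

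The 7 genes were named in every comparison. Of each list, up to 3 genes with the largest change, called and without overlap of the groups, were named. *Scd1*, *Elovl6*, *Srebf2*, *Srebf1*, *Insig1*, *Scap*, *Rxra*, *Mlxipl*, *Lpcat3*, *Adipoq*, *Cfd* and *Plin4* were named after their values were seen. One listed gene and one motif are not reported here. Members and lists were chosen with earlier results of these data known. Symbols, positions and exon lengths came from GENCODE M21 on GRCm38 (16212 identifiers matched) and promoters from RefSeq. Figures used Python 3.11.15, NumPy 2.4.6, pandas 2.3.3 and matplotlib 3.10.9.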

Additional observations from a re-analysis of the deposited data

Results flagged for a closer look

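For *Elovl3* and *Elovl5* the fructose libraries lay on one side of the sucrose libraries in control liver and on the other side in libraries labelled MED13-LKO, differences that did not pass the test. For *Elovl3*, the log2 fold change of fructose against sucrose was 1.39 in control liver, where both fructose libraries (48.5 and 63.0) were above both sucrose libraries (27.1 and 15.5). It was -3.37 in libraries labelled MED13-LKO, where both fructose libraries (12.8 and 0) were below both sucrose libraries (25.2 and 55.7). The count of 12.8 rests on about 13 reads, and the size of -3.37 rests in part on the library listed at 0. For *Elovl5*, the change was -0.56 in control liver (4575 and 3601 with sucrose, 2458 and 3064 with fructose) and 0.080 in libraries labelled MED13-LKO (1978 and 2080, then 2137 and 2150).

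The difference itself was tested as an interaction of genotype and sugar, a comparison added after the values were seen. It was -4.76 for *Elovl3* (SE 1.48, unadjusted p = 0.00938 and adjusted p = 0.590 from limma) and 0.64 for *Elovl5* (SE 0.18, unadjusted p = 0.00427 and adjusted p = 0.552 from limma). Neither was called. By limma, 0.105% of all genes passed this test and none of the 7 members did. Unadjusted p was under 0.05 for 2 members and for 855 of 12366 genes. With each library left out in turn the interaction ran from -6.65 to -2.87 for *Elovl3* and from 0.47 to 0.82 for *Elovl5*, and it was called in none of these fits. The value of -6.65 rests on 1 fructose library listed at 0 and so is set by the pseudocount. With groups of 2, no single library could be tested as far from the rest of its group.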

How the results depend on the processing

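The lower levels of *Elovl2* and *Elovl5* and the higher level of *Fads1* in libraries labelled MED13-LKO, averaged over diets, kept their direction and their call under all alternatives run, as did *Elovl5* with sucrose. *Elovl3* and *Scd2* rest on few reads, and each group has 2 mice. The number of members called between sucrose-fed and fasted control liver went from 2 to 1 with a pseudocount of 0.1, with no filter and with only the groups compared. Between fructose-fed and fasted control liver it went from 0 to 1 with a pseudocount of 10. Between genotypes with fructose it went from 1 to 2 with a pseudocount of 10 and to 0 with only the groups compared. Between genotypes in the fasted state it went from 3 to 4 with a pseudocount of 10 and with only the groups compared, and to 2 with no filter. Averaged, it went from 3 to 2 with a pseudocount of 0.1 and to 4 with equal 75th percentiles (refed against fasted), and from 5 to 4 with a pseudocount of 0.1 (genotypes). The cause of these shifts was not tested. Only the groups compared were not fitted alone for the averaged comparisons, which hold all groups. With each library left out in turn, the number called ran from 0 to 2 (sucrose against fasted, control), 0 to 1 (fructose against fasted, either genotype), 0 to 4 (refed against fasted, averaged), 0 to 3 (genotypes, fasted), 0 to 1 (genotypes, fructose), 3 to 6 (genotypes, averaged) and 0 to 1 (fructose against sucrose, control).

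Values that changed sign were all of members that were not called. With equal 75th percentiles, *Fads1* went to 0.033 with sucrose and 0.039 with fructose in libraries labelled MED13-LKO, *Elovl2* to 0.012 with fructose there, and *Elovl1* to 0.013 in the interaction with sucrose. With a pseudocount of 10, *Elovl3* went to 0.78 in the interaction with fructose. With each library left out in turn, these log2 fold changes ran through 0. For fructose against fasted in control, *Fads2* -0.11 to 0.18 and *Elovl5* -0.12 to 0.20. For sucrose against fasted in MED13-LKO, *Fads1* -0.11 to 0.083, *Fads2* -0.23 to 0.054, *Elovl2* -0.020 to 0.17 and *Elovl3* -0.87 to 1.20. For fructose against fasted in MED13-LKO, *Fads1* -0.042 to 0.031 and *Elovl2* -0.12 to 0.058. For genotypes with fructose, *Fads2* -0.057 to 0.24, *Elovl1* -0.13 to 0.52 and *Scd2* -0.14 to 0.042. For fructose against sucrose in control, *Elovl1* -0.25 to 0.40 and *Elovl2* -0.0077 to 0.23. For fructose against sucrose in MED13-LKO, *Fads1* -0.089 to 0.10, *Fads2* -0.25 to 0.037, *Elovl1* -0.034 to 0.30 and *Scd2* -0.014 to 0.12. For the interaction with sucrose, *Fads2* -0.11 to 0.17, *Elovl1* -0.13 to 0.084 and *Scd2* -0.22 to 0.094. For the interaction with fructose, *Elovl1* -0.29 to 0.36, *Elovl2* -0.041 to 0.14 and *Elovl3* -2.57 to 1.22. For the interaction of genotype and sugar, *Elovl1* -0.27 to 0.38. Libraries with the same number in the sample titles did not deviate together (correlations from -0.142 to 0.078 over 15 pairs of groups), so these numbers were not taken as pairs. In the column names the refed libraries carry other numbers than in the titles, and a pairing by the column names was not tried. Blocking on the replicate number (the replicate block), the same number of members was called in every comparison. Between genotypes with fructose, 832 genes were called with the block, 919 with the numbers of 1 group crossed (chosen after seeing the data) and 951 without a block, 1 of them a member in each.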
